A study of Mus musculus with 2 samples.

Results

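The genes described here were 47 autosomal genes with far more transcript in somatic cells of the foetal mouse testis than of the ovary at each of 3 times of sampling. They were chosen from read counts by a fixed rule. Each library's counts were scaled by its total to CPM, so that every library had the same sum, and log2(CPM + 1) was taken. A gene on chromosomes 1 to 19 was kept where its mean over 4 XY libraries exceeded its mean over 4 XX libraries by 2 or more at 0 h, again after 24 h of culture and again after 72 h of culture. Of 42422 gene identifiers in the table, 52 passed, and 5 of these were among the 11 genes that the rule leaves out by name (*Sox9*, *Sox10*, *Amh*, *Dhh*, *Cyp26b1*, *Ptgds*, *Aard*, *Cst9*, *Insl3*, *Cyp17a1* and *Hsd3b1*), which left 47. All 47 passed the filter on low counts, 46 of them are protein-coding and 1, *2600014E21Rik*, is a long non-coding RNA. They lie on 16 chromosomes, with 8 on chromosome 2.

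The somatic cells came from gonads taken at E12.5 (embryonic day) from mice recorded as wild type in genotype and described as ASMU Swiss by *Oct4*-eGFP (Pou5fl), with 129svJT2 as the background. The transgene marks germ cells, and the cells without green fluorescence were collected by flow sorting. Gonads were sampled uncultured (0 h) or were cultured on membranes together with the mesonephros, which was taken off before sorting. XX gonads were cultured with the vehicle DMSO for 24 h or 72 h. XY gonads were cultured for 24 h or 72 h with DMSO, with 500 nM BGJ398 (infigratinib, here FGFRi), which inhibits FGF receptors, or with 500 nM PD0325901 (mirdametinib, here MEKi), which inhibits the kinases MEK1 and MEK2. Each of these 10 groups had 4 libraries, 40 in all, and each library was a pool of several gonads, so a library holds every GFP-negative cell type of the gonad and not Sertoli cells alone. No XX group with an inhibitor was analysed here.

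In the testis, Sertoli cells surround the germ cells and form cords, and they secrete signals that direct the cells between the cords. One of these signals is desert hedgehog, which binds the receptor PTCH1 on interstitial cells and leads to transcription through the GLI factors. *Gli1*, *Ptch1* and *Hhip* are themselves targets of that pathway. Foetal Leydig cells, which make androgens, differentiate in the same interstitium. FGF9, made by Sertoli cells, acts through FGF receptors, and these can signal through MEK1/2 to the kinases ERK1/2, as can receptors for other ligands. Culture with FGFRi and with MEKi therefore asks which testis transcripts depend on either step once sex determination has begun.

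Library totals ranged from 1380707 to 4836550 counts, with a median of 2248854. Sex matched the labels throughout, since *Xist*, transcribed from the inactive X, had 1090 to 2427 counts per library in XX and at most 14 in XY, and the Y-linked *Ddx3y* at most 3 in XX and 65 to 253 in XY. The label of the first library set names 19 of its 20 libraries, and the 1 not named there is M2 of XY 24 h MEKi. The 0 h groups, the 24 h DMSO groups and XY 24 h MEKi were in 1 library set and XY 24 h FGFRi and all 72 h groups in the other, so that FGFRi and library set cannot be told apart in the comparison with DMSO at 24 h. Some libraries stood apart over the 47 genes. XY 72 h FGFRi M5 was the highest of its group for 19 genes and the lowest for 22. XY 72 h MEKi M2 was the lowest of its group for 26 and M4 the highest for 26, and XY 0 h M6 was the highest of its group for 27. XY 24 h FGFRi M1 was the highest of its group for 22 and the lowest for 12.

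By what they are known to do, the 47 genes fell into 7 groups. The hedgehog response held *Ptch1*, *Gli1* and *Hhip*, whose protein binds hedgehog ligands outside the cell. Matrix genes were *Col4a3* and *Col4a4*, which encode chains of type IV collagen, *Col9a3*, a chain of type IX collagen, and *Smoc2* and *Ccn2*, which encode matricellular proteins. Secreted signals and other extracellular proteins were *Inhba* (the βA subunit of activin), *Sostdc1* (an antagonist of BMP and WNT signalling) and *Bdnf* (a neurotrophin). In the same group were *Pdyn* (the precursor of dynorphin opioid peptides), *Sct* (secretin), *Cbln1* (cerebellin) and *Defb19* (a beta-defensin). It also held *Cstdc1* (a protein with a cystatin domain) and *Prss35* (a protein of the trypsin family). Cell surface genes were *Vcam1* and *Itga4*, which encode an adhesion molecule and the integrin α4 chain that binds it, *Erbb3* (a neuregulin receptor), *Fat3* (an atypical cadherin), *Rtn4rl1* (a relative of the Nogo receptor), *Islr2* (a membrane protein with leucine-rich repeats), *Nt5e* (CD73, which makes adenosine from AMP), *Enpep* (glutamyl aminopeptidase) and *Tmem100*. Intracellular regulators and enzymes were *Sox8* (a transcription factor close to SOX9), *Hsd17b3* (which converts androstenedione to testosterone), *Adcy7* (an adenylyl cyclase), *Map3k21* (a kinase of the MAP3K family), *Tesc* (a calcium-binding protein), *Ripor2* (an inhibitor of RHOA), *Trim47* (a RING-type ubiquitin ligase), *Padi2* (an arginine deiminase), *Efhd1* (a mitochondrial calcium-binding protein) and *Plcxd3*. Genes best known from muscle and nerve were *Casq2* (cardiac calsequestrin), *Mybpc3* (cardiac myosin-binding protein C), *Kcns2* (a potassium channel subunit), *Otof* (otoferlin), *Cadps* (which acts in vesicle release), *Sgip1* (which acts in endocytosis), *Vxn* (vexin) and *Jakmip2*. *Mmd2*, *Bricd5* and *2600014E21Rik* were left as other.

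Several of the genes overlap or lie close to other genes. *Col4a3* and *Col4a4* lie head to head on chromosome 1. Their Ensembl canonical transcripts start at 82564697 and 82564800 in the GRCm39 build, 103 bases apart. *Hsd17b3* and *Ptch1* lie 484667 bases apart on chromosome 13. *Islr2* overlaps *Islr* on the same strand and *Trim47* overlaps *Trim65* on the same strand, so reads could be split between the partners. *Bricd5*, *Adcy7* and *Col9a3* overlap *Mlst8*, *Brd7* and *Tcfl5* on the opposite strand. *2600014E21Rik* overlaps the processed pseudogene *Rps6-ps4* on the opposite strand, which had 38100 counts over all libraries, against 1183 of its own.

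The 250 bases upstream of the start of the Ensembl canonical transcript are shown for 5 of the genes, because their transcripts carry the results below. *Ptch1* and *Gli1* are hedgehog targets, *Nt5e* and *Tesc* fell with MEKi, and *Sct* rose with MEKi at 24 h. Each is printed in its own 5′ to 3′ direction from the GRCm39 genome, with matches to a searched motif in capitals. *Ptch1* is at chr13:63714093-63714342 on the minus strand, *Gli1* at chr10:127177866-127178115 on the minus strand, *Sct* at chr7:140859053-140859302 on the minus strand, *Nt5e* at chr9:88208839-88209088 on the plus strand and *Tesc* at chr5:118165558-118165807 on the plus strand, and none of these 5 windows overlaps an annotated exon.
Ptch1: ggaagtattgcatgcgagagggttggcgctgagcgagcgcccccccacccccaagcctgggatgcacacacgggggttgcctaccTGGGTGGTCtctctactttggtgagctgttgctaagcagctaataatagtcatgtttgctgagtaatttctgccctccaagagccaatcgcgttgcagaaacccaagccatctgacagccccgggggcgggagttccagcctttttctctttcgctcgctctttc
Gli1: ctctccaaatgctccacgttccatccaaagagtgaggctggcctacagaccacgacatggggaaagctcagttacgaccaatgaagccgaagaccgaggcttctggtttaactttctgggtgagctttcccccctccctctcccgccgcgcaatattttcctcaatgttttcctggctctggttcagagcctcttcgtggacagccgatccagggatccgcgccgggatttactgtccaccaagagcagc
Sct: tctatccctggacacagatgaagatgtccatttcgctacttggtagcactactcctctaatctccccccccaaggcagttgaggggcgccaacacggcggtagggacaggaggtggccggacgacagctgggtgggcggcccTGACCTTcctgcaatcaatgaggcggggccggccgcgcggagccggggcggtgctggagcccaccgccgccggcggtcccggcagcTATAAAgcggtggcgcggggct
Nt5e: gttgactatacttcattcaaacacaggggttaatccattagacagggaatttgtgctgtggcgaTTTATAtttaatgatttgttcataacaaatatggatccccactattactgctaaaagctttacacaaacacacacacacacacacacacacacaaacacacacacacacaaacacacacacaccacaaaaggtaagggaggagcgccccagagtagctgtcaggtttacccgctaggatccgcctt
Tesc: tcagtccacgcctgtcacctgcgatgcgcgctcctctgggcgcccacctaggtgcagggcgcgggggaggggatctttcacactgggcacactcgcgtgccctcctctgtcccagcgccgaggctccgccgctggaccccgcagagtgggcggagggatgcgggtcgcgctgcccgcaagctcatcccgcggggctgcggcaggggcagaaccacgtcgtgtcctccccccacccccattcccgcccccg

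A set of 5 motifs was searched on both strands, and no motif holds another. Windows were taken upstream of the canonical transcript for all genes, so some, such as that of *Col9a3*, lie within the annotated gene. Of the 47 windows 25 overlap no annotated exon. The GLI motif TGGGTGGTC was found upstream of 1 of the 47 genes, *Ptch1*, and of 41 of 21770 protein-coding genes (0.188%). The NR5A1 motif AAGGTCA was found upstream of 2 genes, *Defb19* and *Sct*, where it reads TGACCTT on the printed strand (4.26%, against 3.93% of all). The TATA motif TATAAA was found upstream of 6 genes (*Adcy7*, *Enpep*, *Nt5e*, *Ripor2*, *Sct* and *Vxn*, 12.8% against 11.9%), and in *Nt5e* it reads TTTATA. The SOX motif AACAATG was found upstream of *Adcy7* (2.13% against 3.10%) and the ETS motif CCGGAAGT upstream of 0 of the 47, against 2.64% of all. The median GC content was 53.2% for the 47 windows and 53.2% for all.

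The difference between XY and XX, by which the genes were chosen, is given as a description. On the log2(CPM + 1) scale it ranged from 2.07 to 5.76 at 0 h (median 2.90), from 2.02 to 5.06 at 24 h (median 3.06) and from 2.02 to 4.92 at 72 h (median 2.96). The smallest of a gene's 3 differences was that at 0 h for 19 genes, at 72 h for 16 and at 24 h for 12. From here on CPM are on library sizes scaled by the trimmed mean of M-values (TMM), and since tags were counted at the 3′ end they are not divided by length. The mean level in XY 72 h DMSO ranged from 6.32 to 583 CPM with a median of 40.9, and in XX 72 h DMSO from 0.453 to 88.0 CPM with a median of 3.70. At 0 h the XY means ranged from 6.58 to 404 CPM with a median of 26.4, and those of XX from 0 to 35.0 with a median of 1.74.

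**Figure D1:**
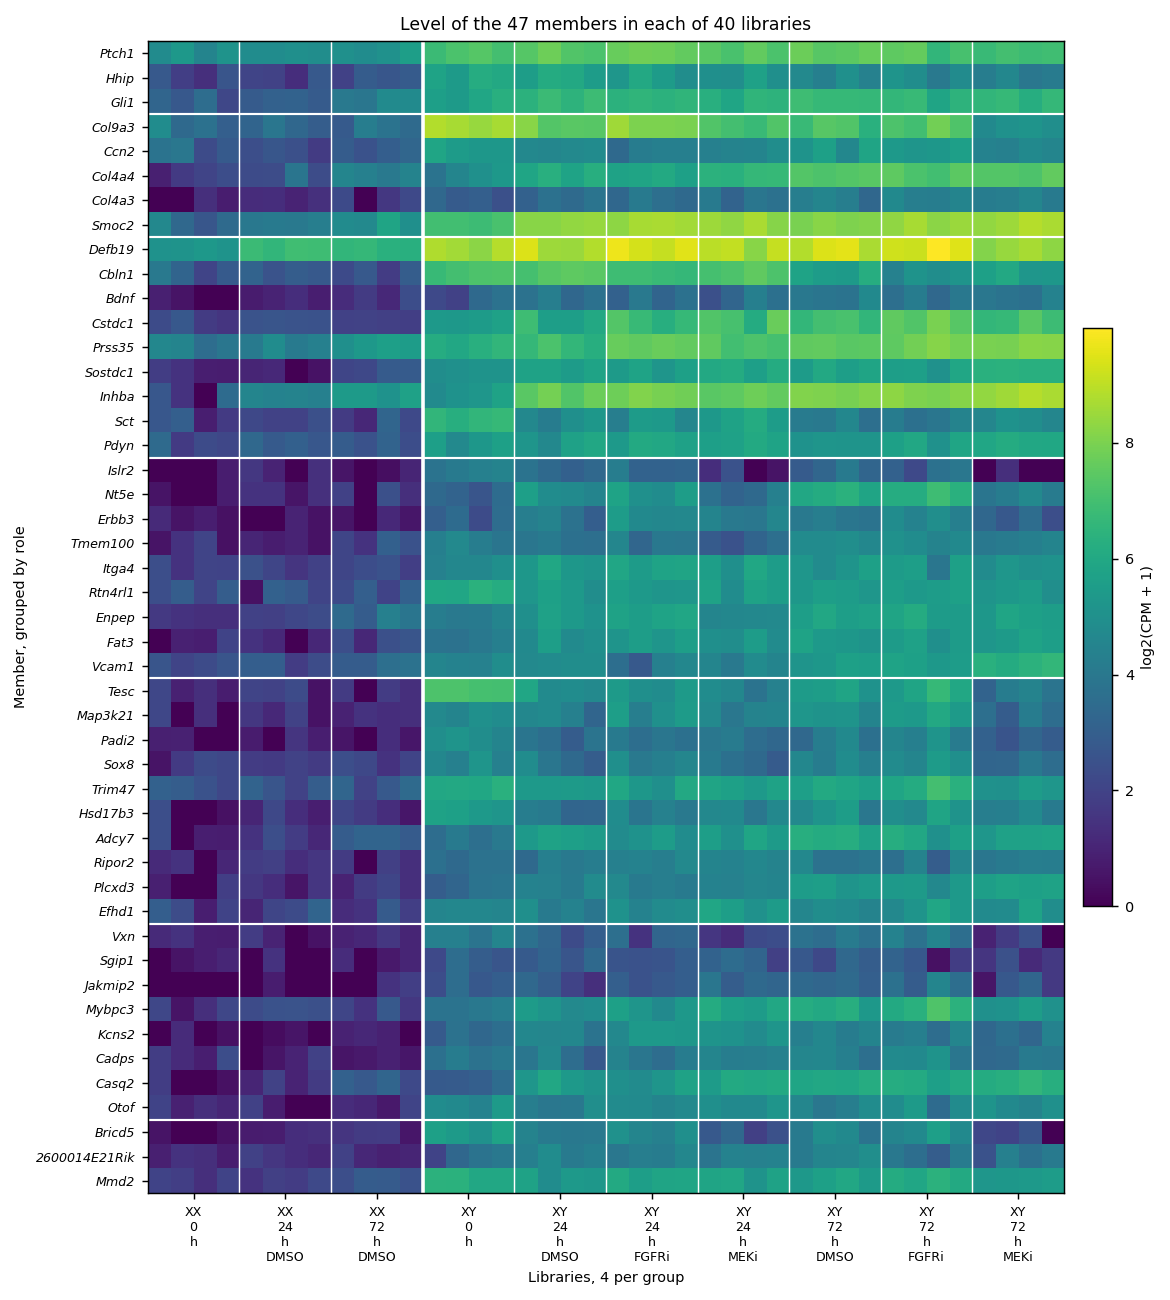
Level of each of the 47 genes (rows, grouped by role) in each of 40 libraries (columns, 4 per group), as log2(CPM + 1), with darker colour for lower levels. The XX libraries on the left are darker than the XY libraries by the rule, and the dark cells of *Islr2*, *Vxn* and *Bricd5* in the last 4 columns are XY 72 h MEKi.

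The 5 genes with the highest mean over the 12 XY libraries of the rule were *Defb19*, *Col9a3*, *Smoc2*, *Inhba* and *Ptch1*. Libraries are listed in the order M2, M3, M5 and M6 for XY 0 h, M2 to M5 for XY 24 h DMSO and M2, M4, M5 and M6 for XY 72 h DMSO. *Defb19* was at 442, 391, 303 and 470 CPM at 0 h, at 711, 362, 357 and 451 at 24 h and at 457, 698, 763 and 415 at 72 h. The XX libraries had 32.9 to 39.5, 93.8 to 121 and 78.8 to 100 CPM at the same times, the highest group means of any of the 47 genes in the ovary. *Col9a3* was at 454, 412, 345 and 407 CPM at 0 h, at 294, 159, 172 and 165 at 24 h and at 109, 165, 155 and 79.0 at 72 h, and stayed between 6.11 and 27.8 CPM in XX. Its XY level was lower in every library cultured with DMSO than in any uncultured one. *Smoc2* was at 124, 125, 115 and 137 CPM at 0 h, at 297, 293, 332 and 350 at 24 h and at 253, 298, 264 and 278 at 72 h, with no overlap between uncultured and cultured libraries. *Inhba* showed the same order, with 26.2, 33.0, 37.3 and 53.0 CPM at 0 h, 170, 235, 154 and 211 at 24 h and 273, 263, 244 and 279 at 72 h. In XX gonads *Inhba* also had more transcript in cultured libraries, with 0 to 10.2 CPM at 0 h and 33.4 to 52.2 at 72 h. *Ptch1* was at 111, 143, 163 and 126 CPM at 0 h, at 162, 221, 152 and 141 at 24 h and at 211, 169, 176 and 200 at 72 h, and its XX libraries lay between 21.7 and 47.

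Just inside the threshold of the rule lay 3 genes and just outside it another 3. *Sox8* entered with a difference of 2.02 at 24 h, where its XY libraries had 27.8, 14.2, 9.58 and 6.61 CPM and its XX libraries 2.45, 2.23, 2.90 and 2.37. *Hhip* entered with 2.02 at 72 h, where the XY libraries had 24.7, 18.9, 30.9 and 20.0 CPM and the XX libraries 2.82, 6.50, 5.37 and 6.27. *Sct* entered with 2.03 at 72 h, with 16.7, 15.4, 23.9 and 11.4 CPM in XY and 2.35, 1.18, 8.64 and 3.65 in XX. Each of these was well above 2 at another time, with 2.92 for *Sox8*, 3.63 for *Hhip* and 4.42 for *Sct* at 0 h. Left outside were *Fstl4* with 1.99 at 24 h (9.27, 4.97, 5.36 and 7 CPM in XY, 0.701, 1.73, 0 and 1.98 in XX) and *Vcan* with 1.98 at 72 h (443, 459, 319 and 413 CPM in XY, 105, 72.6, 109 and 134 in XX). *Serpina5* was left outside with 1.98 at 0 h, where XY libraries had 3.08, 1.71, 2.87 and 5.65 CPM and XX libraries had 0.

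After 72 h, MEKi lowered 14 of the 47 genes and raised 4. Called means an adjusted p below 0.05 with a change of at least 1.5-fold, by edgeR's quasi-likelihood test over 15125 genes with Benjamini-Hochberg adjustment. Over all genes tested 6.47% were called, 4.19% lower and 2.29% higher, against 18 of 47 here (38.3%), 14 of them lower (29.8%). All 47 genes had at least 5 CPM in XY 72 h DMSO, and among the 12958 tested genes at that level the shares were 6.78%, 4.49% and 2.28%. The XY DMSO libraries of this comparison also entered the rule. Where genes were chosen at 0 h and 24 h alone, 26 of 77 were called, 20 lower and 6 higher. The median log2 fold change of the 47 was -0.38 and that of all genes 0.00. The libraries of the 2 treatments did not overlap for 21 of the 47 genes, and for 17.2% of all genes. Every library is a mixture of cell types, so fewer cells of a type and less RNA per cell cannot be told apart in any of these results. On library totals without TMM the split was 15 lower and 2 higher.

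By role, MEKi at 72 h lowered 2 of 5 matrix genes, 3 of 9 cell surface genes, 4 of 10 intracellular genes, 2 of 8 muscle and nerve genes, 1 of 3 hedgehog genes, 1 of 9 secreted genes and 1 of 3 others, and it raised 3 secreted genes and 1 cell surface gene. Ordered by size, the changes ran from a log2 fold change of -4.42 to one of 0.96.

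**Figure D2:**
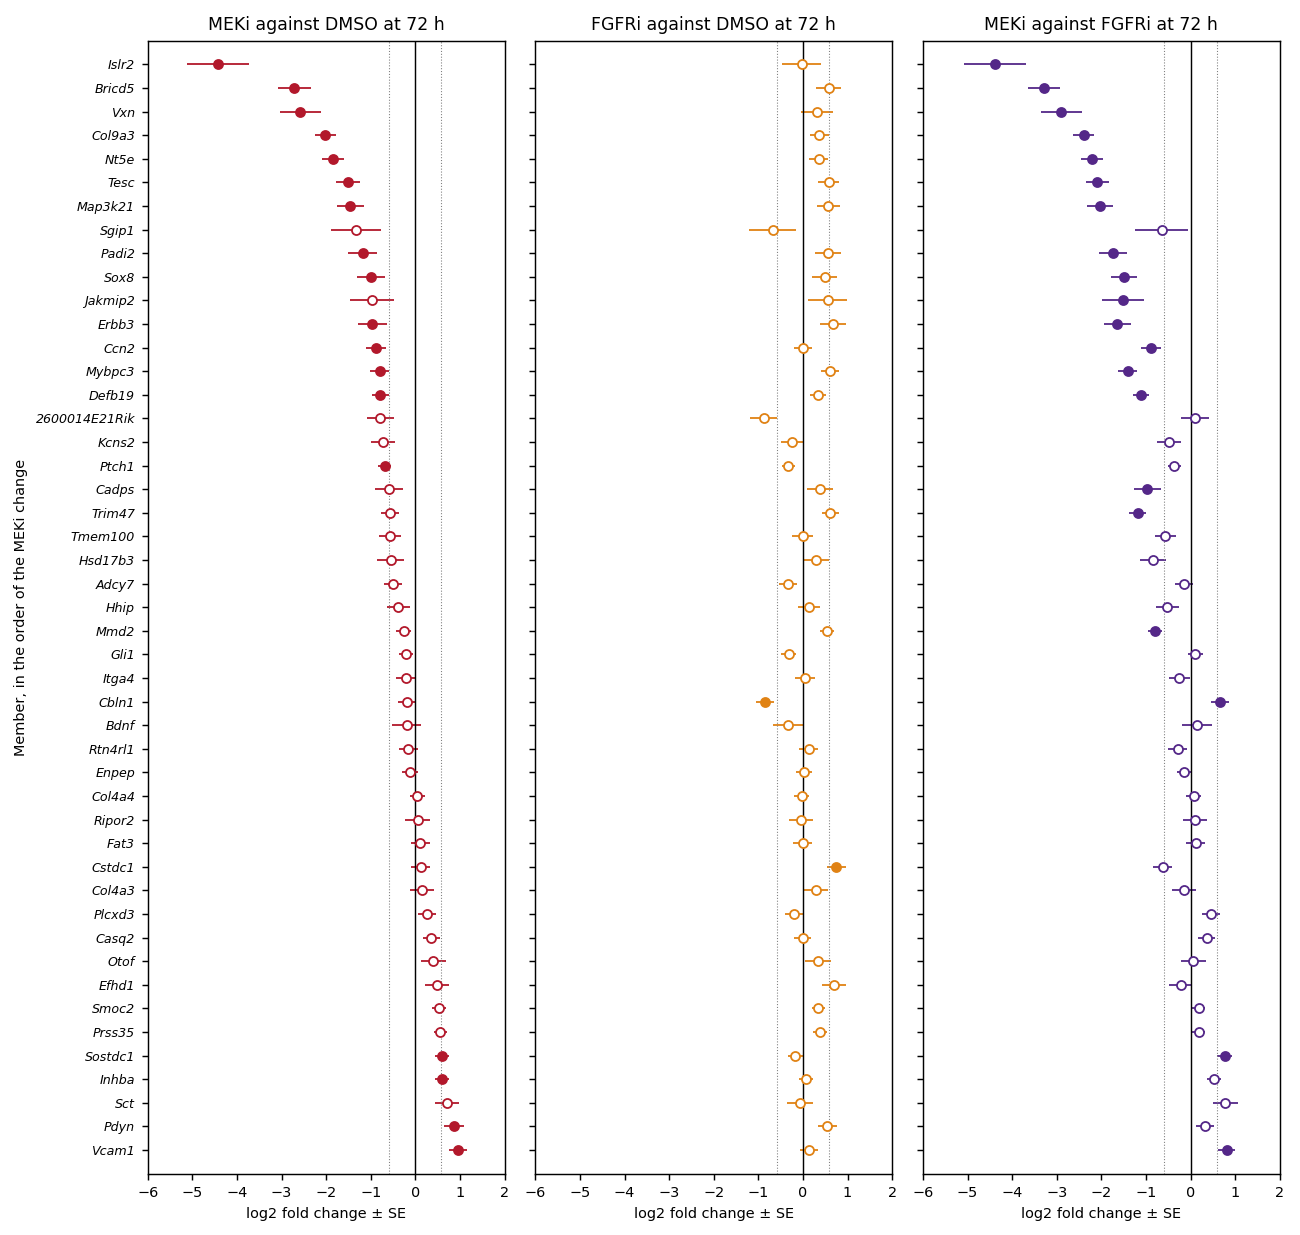
Log2 fold change of each of the 47 genes (rows, in the order of the MEKi change) in the 3 comparisons at 72 h, with the standard error as bars, filled points for called genes and dotted lines at 1.5-fold. With MEKi against DMSO 14 genes were called lower and 4 higher, with FGFRi against DMSO 1 and 1, and with MEKi against FGFRi 17 and 3.

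*Col9a3* (ENSMUSG00000027570.15, chromosome 2, 180239583 to 180264063) was at 109, 165, 155 and 79.0 CPM with DMSO and at 25.6, 32.5, 35.2 and 29.7 with MEKi (M2 to M5). The mean fell from 127 ± 40.2 to 30.7 ± 4.09 CPM (SD, n = 4), the groups did not overlap, and the log2 fold change was -2.02 ± 0.24 (SE) with an adjusted p of 1.11e-08 by edgeR. *Ccn2*, the other matrix gene that fell, had a log2 fold change of -0.89 ± 0.22 (edgeR adjusted p = 0.00528). The collagen IV pair did not pass the test, with 145 to 171 CPM of *Col4a4* in DMSO and 144 to 191 in MEKi. *Smoc2* was at 253, 298, 264 and 278 CPM with DMSO and 329, 365, 464 and 418 with MEKi, so that every MEKi library lay above every DMSO library. Its change of 0.53 (edgeR adjusted p = 0.0138) was under 1.5-fold, and it came to 0.61 and was called without MEKi M2.

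Of the cell surface genes, *Islr2*, *Nt5e* and *Erbb3* fell and *Vcam1* rose. *Islr2* (ENSMUSG00000051243.14, chromosome 9, 58103580 to 58111602) was at 6.33, 8.95, 16.0 and 8.57 CPM with DMSO and at 0, 1.53, 0 and 0 with MEKi. In the MEKi group it rested on 4 counts in M3, so the log2 fold change of -4.42 ± 0.70 (edgeR adjusted p = 1.05e-05) is poorly bounded, and the fitted value was -7.57 without M3, when every remaining MEKi library was at 0. Its overlapping neighbour *Islr* had a log2 fold change of -0.05 (edgeR adjusted p = 0.849). *Nt5e* (ENSMUSG00000032420.8, chromosome 9, 88209089 to 88254146) was at 61.6, 69.1, 82.3 and 55.7 CPM with DMSO and at 13.7, 17.2, 25.1 and 16.7 with MEKi. Each MEKi library had less than the lowest DMSO library, and the mean fell from 67.2 ± 11.5 to 18.2 ± 4.86 CPM, a log2 fold change of -1.85 ± 0.25 (edgeR adjusted p = 2.61e-07). *Vcam1* went the other way, with 34.7, 38.3, 50.4 and 47.1 CPM in DMSO and 79.6, 70.3, 83.8 and 96.0 in MEKi. That was a log2 fold change of 0.96 ± 0.19 without overlap (edgeR adjusted p = 0.000531). *Itga4*, its binding partner, was at 26.8 to 49.5 CPM in DMSO and 27.5 to 36.7 in MEKi and was not called. *Erbb3* fell by 0.97 on the log2 scale (edgeR adjusted p = 0.0409), but was no longer called when any of 6 libraries was left out (DMSO M2, M4 or M5, MEKi M2, M3 or M5), with values from -1.25 to -0.80.

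Among intracellular genes *Tesc*, *Map3k21*, *Padi2* and *Sox8* fell. *Tesc* (ENSMUSG00000029359.13, chromosome 5, 118165808 to 118202091) was at 43.3, 46.2, 55.4 and 32.8 CPM with DMSO and at 8.06, 17.2, 21.4 and 13.5 with MEKi. The 2 groups did not overlap, and the mean fell from 44.4 ± 9.28 to 15.0 ± 5.65 CPM (log2 fold change -1.51 ± 0.27, edgeR adjusted p = 0.000127). *Map3k21* had a log2 fold change of -1.46 ± 0.30 (edgeR adjusted p = 0.000671) and *Padi2* one of -1.18 ± 0.33 (edgeR adjusted p = 0.0143), and the call of *Padi2* was lost without DMSO M5 or MEKi M3 (-1.40 to -0.86 over 8 fits). *Sox8*, a Sertoli cell transcription factor, was at 23.3, 17.4, 27.9 and 19 CPM with DMSO and 8.53, 8.79, 15.1 and 10.8 with MEKi. Each MEKi library was again below each DMSO library, with a log2 fold change of -1.0 ± 0.31 (edgeR adjusted p = 0.027). Its call was lost without DMSO M2 or M5 or MEKi M2, M3 or M5, over a range of -1.24 to -0.87. *Hsd17b3* and *Trim47*, which are also on the Sertoli cell list, did not pass. *Hsd17b3* was at 24.7, 34.8, 45.9 and 14.8 CPM with DMSO and 18.5, 19.1, 26.4 and 16.2 with MEKi, which overlap (-0.55, edgeR adjusted p = 0.244). *Trim47* was at 48.6, 65.1, 57.8 and 49.0 CPM with DMSO and 32.2, 31.7, 45.2 and 37.2 with MEKi. Here the libraries were apart, yet the adjusted p was 0.051 for a log2 fold change of -0.58 by edgeR, and it was called without MEKi M4 (-0.72).

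*Bricd5* (ENSMUSG00000045744.11, chromosome 17, 24692801 to 24694443) was at 15.7, 29.8, 25.4 and 12.8 CPM with DMSO and at 3.32, 3.06, 5.02 and 0 with MEKi. Its mean fell from 20.9 ± 8.01 to 2.85 ± 2.09 CPM, a log2 fold change of -2.72 ± 0.37 (edgeR adjusted p = 3.51e-07). *Mlst8*, which overlaps it on the opposite strand, had one of 0.01 (edgeR adjusted p = 0.985). *Vxn* (ENSMUSG00000067879.3, chromosome 1, 9671354 to 9697368) was at 12.7, 10.9, 17.0 and 12.4 CPM with DMSO and at 0.948, 2.29, 4.40 and 0 with MEKi. The groups did not overlap, and the log2 fold change was -2.58 ± 0.46 (edgeR adjusted p = 9.87e-05). *Mybpc3* fell by 0.80 on the log2 scale (edgeR adjusted p = 0.0113), and was not called without DMSO M2 (-0.97 to -0.70 over 8 fits). Other muscle and nerve genes did not pass, among them *Sgip1* with -1.33 (edgeR adjusted p = 0.11) and *Kcns2* with -0.73 (edgeR adjusted p = 0.0641), the latter called without MEKi M5 (-1.03).

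Of the secreted genes, 1 fell and 3 rose. *Defb19* was at 457, 698, 763 and 415 CPM with DMSO and 279, 349, 408 and 314 with MEKi, and the highest MEKi library lay just under the lowest DMSO library. Its mean fell from 583 ± 173 to 338 ± 54.9 CPM (log2 fold change -0.78 ± 0.18, edgeR adjusted p = 0.00317). *Inhba* was at 273, 263, 244 and 279 CPM with DMSO and 329, 372, 474 and 425 with MEKi. The groups were apart, and it rose by 0.60 ± 0.15 (edgeR adjusted p = 0.00554), close to the limit of 1.5-fold. *Sostdc1* was at 43.6, 64.1, 46.9 and 56.2 CPM with DMSO and 79.2, 81.4, 77.9 and 77.6 with MEKi, a log2 fold change of 0.59 ± 0.16 without overlap (edgeR adjusted p = 0.00948). The *Inhba* call was lost without DMSO M5, MEKi M4 or MEKi M5 (0.50 to 0.68) and the *Sostdc1* call without DMSO M2, DMSO M5 or MEKi M3 (0.50 to 0.70). Both were also lost on library totals without TMM and with the 2 groups alone. *Pdyn* rose from 32.7, 35.8, 35.4 and 35.2 CPM to 59.2, 69.9, 63.1 and 60.4, by 0.87 ± 0.21 (edgeR adjusted p = 0.00503), and its groups did not overlap. *Sct* (0.71, edgeR adjusted p = 0.0865) and *Prss35* (0.56, edgeR adjusted p = 0.008) were not called. *Prss35*, at 172 to 194 CPM with DMSO and 244 to 293 with MEKi, was under 1.5-fold and was called without DMSO M4, MEKi M2 or MEKi M3 (at most 0.60), and *Sct* was called without DMSO M5 (0.91).

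In the hedgehog response MEKi lowered the receptor gene *Ptch1* at 72 h. It was at 211, 169, 176 and 200 CPM with DMSO and at 108, 126, 114 and 122 with MEKi, with no overlap. The mean fell from 189 ± 19.8 to 117 ± 8.07 CPM, a log2 fold change of -0.69 ± 0.15 (edgeR adjusted p = 0.00162). *Gli1*, the transcriptional effector, was at 118, 103, 103 and 100 CPM with DMSO and 93.8, 101, 73.5 and 101 with MEKi (-0.21, edgeR adjusted p = 0.432). *Hhip* was at 24.7, 18.9, 30.9 and 20.0 CPM with DMSO and 18, 23.3, 14.8 and 16.7 with MEKi (-0.38, edgeR adjusted p = 0.362). *Ptch1* therefore passed the test where the other two targets did not, but the differences between these genes' changes were not tested.

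With the fold change of 1.5 placed inside the test (edgeR's glmTreat), 6 of the 18 MEKi calls at 72 h remained, *Islr2*, *Bricd5*, *Vxn*, *Col9a3*, *Nt5e* and *Tesc*, and voom with treat kept the same genes but for *Tesc*. These 6 had the largest decreases, from -4.42 to -1.51.

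**Figure D3:**
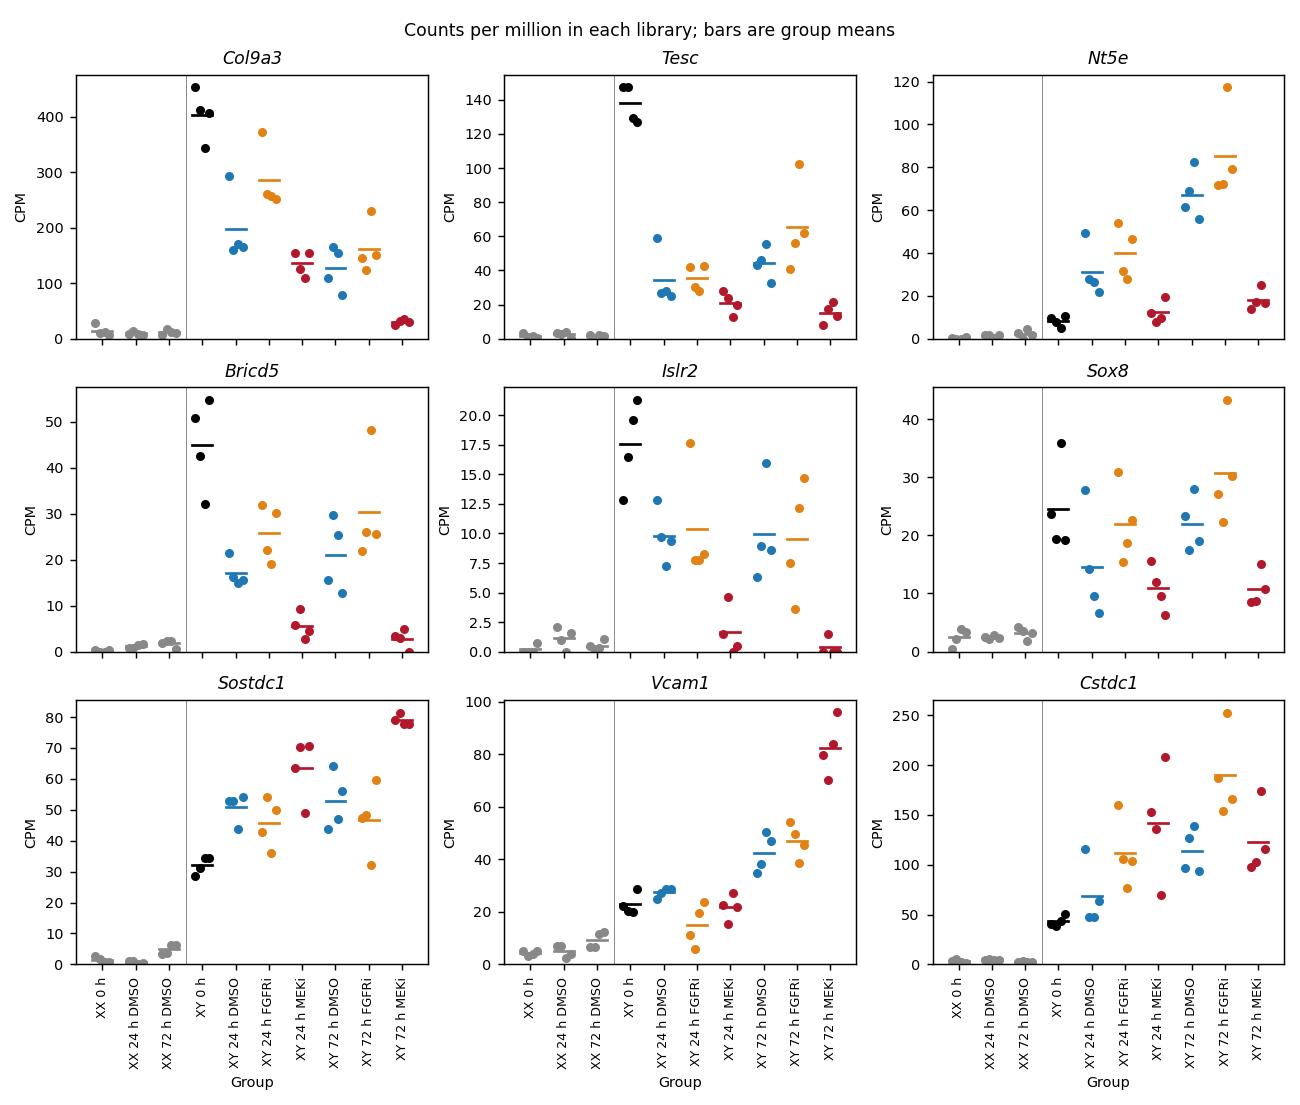
CPM of 9 of the genes in every library (points) with the group means (bars), for the 10 groups along the horizontal axis. In *Col9a3*, *Tesc*, *Nt5e*, *Bricd5*, *Islr2* and *Sox8* the 4 XY 72 h MEKi libraries lie below the 4 XY 72 h DMSO libraries, in *Sostdc1* and *Vcam1* above them, and the single high FGFRi library of *Nt5e*, *Bricd5*, *Tesc* and *Cstdc1* at 72 h is M5.

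FGFRi at 72 h changed 2 of the 47 genes, *Cbln1* lower and *Cstdc1* higher, where 1.8% of all genes were called, 0.939% lower and 0.866% higher (1.96%, 1.09% and 0.872% of genes of at least 5 CPM). The comparison shares its DMSO libraries with that of MEKi. The libraries did not overlap for 5 of the 47 genes and 7.4% of all genes, and the median log2 fold change was 0.14, against 0.00 for all genes. *Cbln1* (ENSMUSG00000031654.16, chromosome 8, 88195033 to 88199261) was at 55.0, 45.2, 42.4 and 74.2 CPM with DMSO and at 20.2, 34.4, 28.6 and 35.2 with FGFRi (M2, M4, M5 and M6). It fell from a mean of 54.2 ± 14.4 to 29.6 ± 6.96 CPM without overlap, by 0.86 on the log2 scale (SE 0.20, edgeR adjusted p = 0.0101). With MEKi the same gene was at 50.2, 64.2, 36.7 and 38.3 CPM, which overlapped those with DMSO. *Cstdc1* (ENSMUSG00000027444.2, chromosome 2, 148623929 to 148627858) was at 96.6, 127, 139 and 93.3 CPM with DMSO and 187, 154, 253 and 166 with FGFRi. It rose by 0.75 ± 0.22 (edgeR adjusted p = 0.0476) and the groups were apart, while its MEKi libraries had 97.6, 103, 174 and 115 CPM. The count of 2 depended on single libraries. It was 0 without FGFRi M5 or DMSO M6 (7 and 11 of the 47 at an unadjusted p below 0.05), 1 without FGFRi M6, DMSO M2 or DMSO M4, and 4 without FGFRi M4. *Cbln1* was lost without FGFRi M5 or DMSO M6 (-0.94 to -0.67) and *Cstdc1* without any of 6 libraries, all but FGFRi M4 and DMSO M5 (0.57 to 0.86). DESeq2 called 1 of the 47 genes and not *Cstdc1*.

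The 14 genes that MEKi lowered at 72 h were not called with FGFRi. FGFRi left *Col9a3* at 146, 124, 230 and 151 CPM, *Nt5e* at 72.0, 72.1, 117 and 79.3, *Tesc* at 40.9, 55.9, 102 and 62.1 and *Bricd5* at 21.9, 25.9, 48.3 and 25.6. For each of these the highest value was that of M5, which was the highest FGFRi library for 11 of the 14 genes and the lowest for *Ptch1* (179, 197, 94.5 and 135 CPM). It was also the lowest for all 4 genes that MEKi raised. In M5 the other genes of the Sertoli cell list summed to 5433 CPM, against 3675, 3696 and 4361 in M2, M4 and M6, and those of the peritubular and interstitial list to 2653, against 4142, 3646 and 3797. The part of these in the FGFRi values was not tested. *Mmd2* (0.54, edgeR adjusted p = 0.0597), *Trim47* (0.61, 0.0666) and *Mybpc3* (0.61, 0.0994) lay near the threshold. They were called without 1 library, *Mmd2* without FGFRi M4 or DMSO M5 (up to 0.68), *Trim47* without FGFRi M2 or M4 (up to 0.75) and *Mybpc3* without FGFRi M2 (0.75). Of the hedgehog genes *Gli1* had 96.7, 104, 56.2 and 87.2 CPM and *Hhip* 35.1, 28.8, 15.4 and 26.8, again with M5 lowest. Of the 7 others on the hedgehog list 0 were called with FGFRi by edgeR (3, *Boc*, *Gas1* and *Gli3*, at an unadjusted p below 0.05) and 0 by DESeq2. *Boc* passed the adjusted threshold but was under 1.5-fold (-0.53, edgeR adjusted p = 0.0346).

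MEKi against FGFRi at 72 h compares the inhibitors directly, in libraries that played no part in choosing the genes. Of the 47 genes 17 were lower with MEKi and 3 higher, where 4.69% and 1.74% of all genes were (6.43% in all). Among genes of at least 5 CPM these shares were 4.86%, 1.85% and 6.71%. The libraries did not overlap for 21 of the 47, against 14.8% of all genes, and the median log2 fold change was -0.36, against 0.01. Of the 14 genes lower with MEKi than with DMSO, 13 were also lower than with FGFRi, the exception being *Ptch1* (-0.36, edgeR adjusted p = 0.134). *Islr2* was at 7.49, 3.65, 12.2 and 14.7 CPM with FGFRi and 0, 1.53, 0 and 0 with MEKi, and *Vxn* at 20.7, 12.6, 21.5 and 11.3 and 0.948, 2.29, 4.40 and 0. Neither overlapped between the inhibitors, and the log2 fold changes were -4.39 (edgeR adjusted p = 8.45e-06) and -2.90 (6.27e-06). For the other 4 of the 6 largest decreases the values were -3.29 for *Bricd5* (1.16e-09), -2.39 for *Col9a3* (1.34e-10), -2.20 for *Nt5e* (2.46e-09) and -2.09 for *Tesc* (9.43e-08).

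Genes called in this direct comparison and not with MEKi against DMSO were *Trim47* (-1.19, edgeR adjusted p = 1.5e-05), *Mmd2* (-0.80, 0.000542), *Jakmip2* (-1.52, 0.0279) and *Cadps* (-0.97, 0.03), all lower with MEKi. *Trim47* had 57.6, 70.1, 126 and 79.3 CPM with FGFRi and 32.2, 31.7, 45.2 and 37.2 with MEKi, and its value of M5 was again the highest. Higher with MEKi were *Vcam1* (0.82, edgeR adjusted p = 0.00244), *Sostdc1* (0.76, 0.000698) and *Cbln1* (0.66, 0.0245). *Inhba* (0.53, edgeR adjusted p = 0.0145) was under 1.5-fold and was called without MEKi M2 (0.60). *Cadps* lost its call without FGFRi M2, M4 or M5 or MEKi M2 or M3 (-1.18 to -0.78). *Cbln1* lost it without FGFRi M2 or M5 or MEKi M2 or M3 (0.46 to 0.77), and *Jakmip2* without FGFRi M5 or MEKi M2 or M5 (-2.14 to -1.12). With the fold change inside the test (glmTreat), 13 of the 20 calls remained.

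After 24 h with MEKi 4 of the 47 genes were lower and 4 higher, where 1.98% and 1.29% of all genes were (3.27% in all), and 1.97%, 1.11% and 3.08% of genes of at least 5 CPM. The DMSO libraries at 24 h also entered the rule, and of 54 genes chosen at 0 h and 72 h alone 9 were called. Libraries are in the order M1, M2, M4 and M6 for MEKi. The groups did not overlap for 11 of the 47 genes and 8.85% of all genes, and the median log2 fold change was 0.08, against -0.01 for all. *Islr2* was at 12.8, 9.69, 7.28 and 9.33 CPM with DMSO and at 1.47, 4.65, 0 and 0.456 with MEKi, so that it was already lower without overlap at this time (-2.82 ± 0.58, edgeR adjusted p = 0.000806). *Bricd5* was at 21.4, 16.2, 14.9 and 15.6 CPM with DMSO and 5.87, 9.30, 2.74 and 4.56 with MEKi (-1.68 ± 0.34, edgeR adjusted p = 0.000719). *Nt5e* was at 49.2, 27.8, 26.6 and 21.8 CPM with DMSO and 12.2, 7.97, 9.59 and 19.6 with MEKi, again apart (-1.32 ± 0.27, edgeR adjusted p = 0.000891). *Enpep*, another gene for an enzyme of the cell surface, fell by 0.73 on the log2 scale (edgeR adjusted p = 0.0102). Without MEKi M2, which the label leaves out, 8 genes were called, 4 in each direction, with *Islr2* at -3.97 and *Bricd5* at -1.98.

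The 4 genes higher at 24 h with MEKi were of varied roles. *Efhd1* (ENSMUSG00000026255.15, chromosome 1, 87192031 to 87238565) was at 30.7, 16.2, 20.7 and 14.0 CPM with DMSO and 58.7, 47.8, 31.9 and 43.3 with MEKi. All MEKi libraries were above all DMSO libraries, with a log2 fold change of 1.15 ± 0.26 (edgeR adjusted p = 0.00382). *Cstdc1* was at 116, 47.5, 47.3 and 63.8 CPM with DMSO and 153, 136, 69.9 and 208 with MEKi, where DMSO M2 lay within the MEKi range (1.06 ± 0.22, edgeR adjusted p = 0.00119). *Sct* (ENSMUSG00000038580.13, chromosome 7, 140858243 to 140859052) was at 24.2, 17.2, 30.6 and 38.5 CPM with DMSO and 39.1, 52.5, 69.2 and 44.7 with MEKi, apart by a narrow margin (0.92 ± 0.24, edgeR adjusted p = 0.0152). *Mybpc3* rose by 0.77 ± 0.22 (edgeR adjusted p = 0.0254). The call of *Mybpc3* was lost without DMSO M4 or M5 or MEKi M1 or M6 (0.65 to 0.93), that of *Sct* without DMSO M3 or MEKi M4 (0.72 to 1.10) and that of *Enpep* without DMSO M3 (-0.83 to -0.56). *Sct* was also not called by DESeq2, nor *Mybpc3* on library totals without TMM. With the fold change inside the test, glmTreat kept *Bricd5* and *Islr2* and voom with treat kept *Islr2*.

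Of the 14 genes lower with MEKi at 72 h, 3 were lower at 24 h (*Bricd5*, *Islr2* and *Nt5e*), 1 was higher (*Mybpc3*) and 10 were not called. At 24 h *Col9a3* was at 294, 159, 172 and 165 CPM with DMSO and 155, 126, 109 and 155 with MEKi (-0.53, edgeR adjusted p = 0.131), and *Tesc* at 58.8, 26.6, 27.8 and 25.3 and 27.9, 23.9, 13.0 and 20.1 (-0.72, edgeR adjusted p = 0.124). In both the DMSO library M2 was far above the other 3. *Vxn* had a log2 fold change of -1.39 (edgeR adjusted p = 0.07), and -1.65 and a call without DMSO M4. The difference between the MEKi effects at 72 h and 24 h was tested as an interaction over the 4 groups, each effect lying within 1 library set. It was called for 5 of the 47 genes, 4 with a lower effect at 72 h and 1 with a higher one, where 1.41% of all genes were called, 0.853% lower and 0.555% higher (1.57%, 0.957% and 0.617% of genes of at least 5 CPM).

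*Mybpc3* had the largest called interaction, at -1.57 ± 0.31 (edgeR adjusted p = 0.00222). It was at 44.2, 34.8, 25.3 and 27.6 CPM with DMSO and 69.4, 48.5, 43.8 and 62.0 with MEKi at 24 h, and at 71.0, 64.1, 75.8 and 39.0 and 31.3, 32.9, 46.5 and 31.8 at 72 h, so its direction turned with time. *Col9a3* followed with -1.49 ± 0.31 (edgeR adjusted p = 0.00424), with negative log2 fold changes at both times. *Vcam1* was the gene with the positive interaction, at 1.27 ± 0.29 (edgeR adjusted p = 0.0112). Its libraries had 25.0, 27.3, 28.7 and 28.8 CPM with DMSO and 22.5, 15.3, 27.1 and 21.9 with MEKi at 24 h, which overlap, before the rise at 72 h. *Map3k21* (-1.53 ± 0.41, edgeR adjusted p = 0.0415) and *Kcns2* (-1.36 ± 0.36, 0.0354) were called as well. These calls of *Map3k21* and *Kcns2* were lost in 10 and in 8 of 16 fits that left out 1 library. For both that held without 24 h DMSO M5, 24 h MEKi M1 or M6, 72 h DMSO M4 or 72 h MEKi M2 or M3, when 3 genes were called in all. For *Map3k21* it held also without 24 h DMSO M4, 72 h DMSO M2 or M5 or 72 h MEKi M5 (-1.86 to -1.32), and for *Kcns2* also without 72 h DMSO M6 or 72 h MEKi M4 (-1.66 to -1.21). *Map3k21* was also not called on library totals without TMM.

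**Figure D4:**
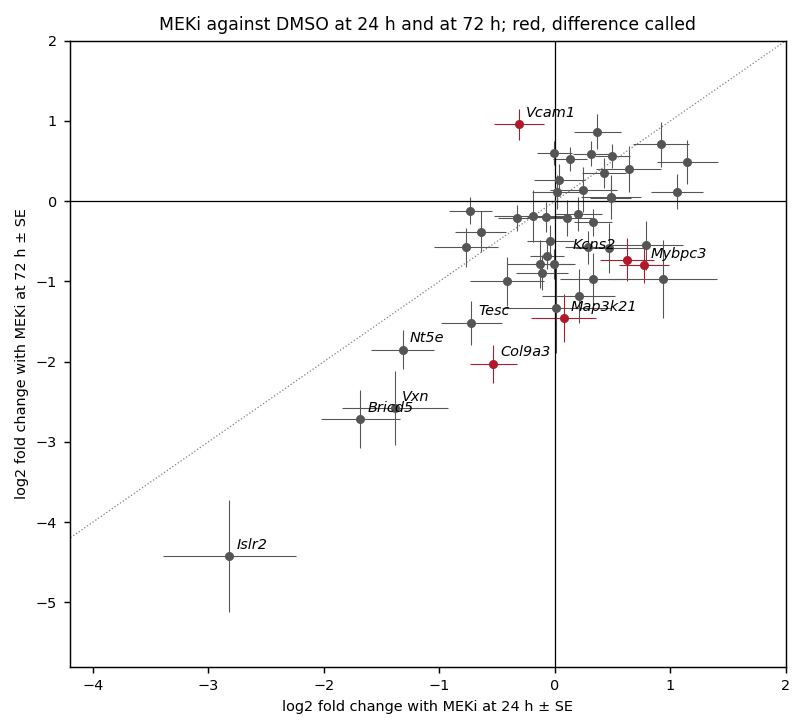
Log2 fold change with MEKi against DMSO at 24 h (horizontal axis) and at 72 h (vertical axis) for each of the 47 genes, with standard errors as bars and equal changes on the dotted diagonal. Red marks the 5 genes with a called difference between the times, and *Islr2*, *Bricd5* and *Nt5e* lie at the lower left with decreases at both.

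FGFRi at 24 h raised 4 of the 47 genes and lowered 1, in libraries of another set than their DMSO controls, which also entered the rule. Of the 54 genes chosen without 24 h, 5 were called. Of all genes 1.69% were higher and 1.59% lower (3.27% in all), as were 1.78%, 1.52% and 3.3% of genes of at least 5 CPM, and the groups did not overlap for 6 of the 47 genes and 10.4% of all. The median log2 fold change was 0.26, against 0.00. *Prss35* rose by 0.92 ± 0.15 (edgeR adjusted p = 3.96e-05), from 98.4, 140, 96.5 and 76.2 CPM to 202, 184, 209 and 189 (M1, M3, M4 and M5), and its groups were apart. *Erbb3* (0.98 ± 0.27, edgeR adjusted p = 0.0221), *Kcns2* (0.76 ± 0.23, 0.0436) and *Cstdc1* (0.72 ± 0.23, 0.0475) also rose. *Vcam1* fell by 0.82 on the log2 scale (edgeR adjusted p = 0.0205), with 11.1, 5.95, 19.6 and 23.6 CPM against 25.0, 27.3, 28.7 and 28.8 in DMSO. *Cbln1*, the gene that fell at 72 h, was at 118, 118, 107 and 98.8 CPM against 132, 169, 179 and 171, apart but under 1.5-fold (-0.57, edgeR adjusted p = 0.0307). It was called without DMSO M2, FGFRi M1 or FGFRi M3 (to -0.67).

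The number of FGFRi calls at 24 h ranged from 1 (without DMSO M4) to 9 (without DMSO M2) when single libraries were left out, and was 2 without DMSO M5 and 3 without FGFRi M1 or M5. On library totals without TMM it was split into 2 higher and 2 lower. *Kcns2* lost its call without any of 7 libraries, all but FGFRi M1 (0.60 to 0.90), and *Cstdc1* without any of 6, all but DMSO M2 and FGFRi M4 (0.49 to 1.07). *Erbb3* lost it without DMSO M4 or M5 or FGFRi M1 (0.71 to 1.2) and *Vcam1* without DMSO M4 or FGFRi M1 or M3 (-1.12 to -0.59). On library totals *Cstdc1* and *Kcns2* were not called, *Kcns2* was not called with a filter of 1 CPM in 4 libraries, *Cstdc1* and *Vcam1* were not called with the 2 groups alone, and *Cstdc1* was not called by DESeq2.

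The distance between XY in inhibitor and XX in DMSO is given as a description. It was measured as in the rule, and the DMSO values, which chose the genes, were 2 or more for all 47. The XX libraries also entered the rule, so a gene near 2 could fall below it in libraries outside the rule without a call. At 72 h the distance was still 2 or more for 45 genes with FGFRi and 34 with MEKi, with medians of 2.96 for DMSO, 2.96 for FGFRi and 2.68 for MEKi. With MEKi 13 genes were below 2 (*Bricd5*, *Ccn2*, *Col9a3*, *Defb19*, *Enpep*, *Hhip*, *Islr2*, *Jakmip2*, *Ptch1*, *Sgip1*, *Sox8*, *Tmem100* and *Vxn*). Of the 13, *Enpep*, *Hhip*, *Jakmip2*, *Sgip1* and *Tmem100* were not called with MEKi against DMSO at 72 h. With FGFRi *Sct* and *Sgip1* were below 2, and neither was called. *Islr2* went from 2.90 with DMSO to -0.16 with MEKi, *Vxn* from 2.64 to 0.09 and *Bricd5* from 2.98 to 0.26, so that these 3 were at or near the ovarian level. *Sgip1* (2.07 to 0.95) was the other gene under 1. *Col9a3* went from 3.38 to 1.38, *Sox8* from 2.49 to 1.49, *Ptch1* from 2.45 to 1.73 and *Defb19* from 2.69 to 1.90. *Nt5e* (4.64 to 2.76) and *Tesc* (4.27 to 2.68) started from higher values and stayed above 2. All 4 MEKi libraries were above all 4 XX libraries for 42 of the 47 genes, and all 4 FGFRi libraries for 46. All 4 DMSO libraries were above them for 47. Since the XX libraries also chose the genes, these counts are a description, and the share over all genes is not given. At 24 h the distance was 2 or more for 45 genes with FGFRi (below it *Ccn2* and *Vcam1*) and 42 with MEKi (below it *Bricd5*, *Islr2*, *Sox8*, *Vcam1* and *Vxn*), with medians of 3.17 and 3.12, against 3.06 with DMSO.

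**Figure D5:**
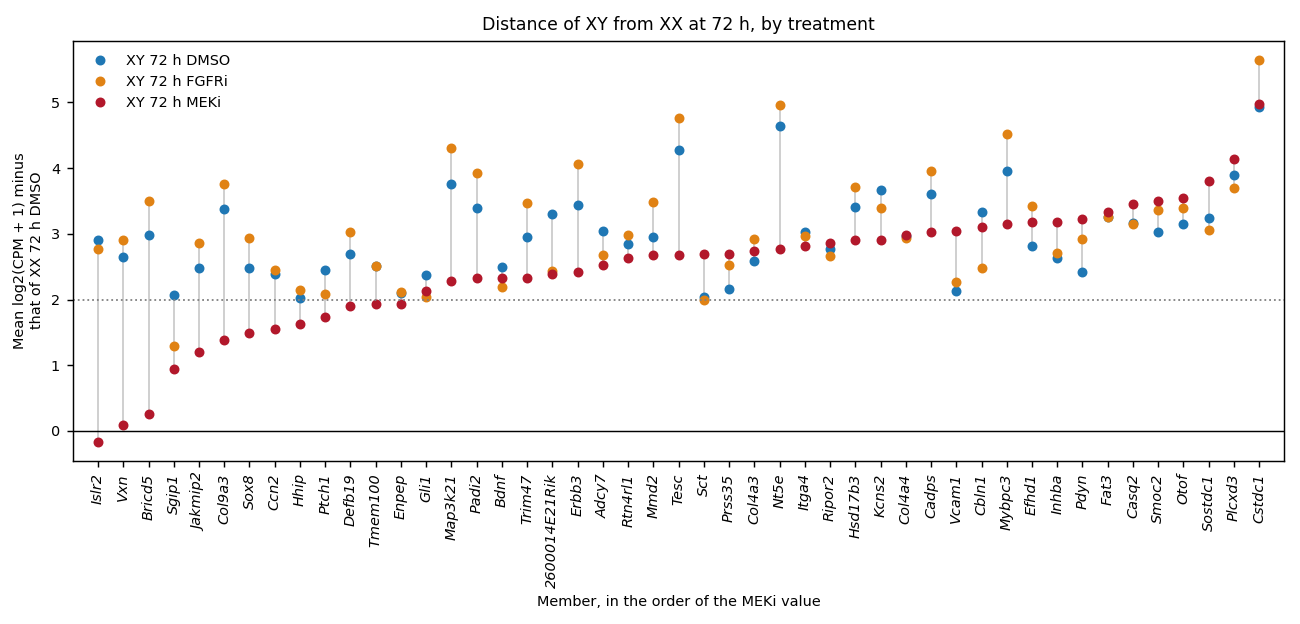
Mean log2(CPM + 1) of XY minus that of XX 72 h DMSO for each of the 47 genes at 72 h, with DMSO in blue, FGFRi in orange and MEKi in red, in the order of the MEKi value. The dotted line is the threshold of 2 in the rule, under which 13 genes lie with MEKi and 2 with FGFRi, and *Islr2*, *Vxn* and *Bricd5* lie between -0.16 and 0.26 with MEKi.

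Between uncultured XY gonads and 24 h in DMSO, 16 of the 47 genes rose and 12 fell, where 8.9% of all genes rose and 5.5% fell (14.4% in all), and 9.38%, 5.21% and 14.6% of genes of at least 5 CPM. The 24 h DMSO gonads were also older by the time spent in culture, and no uncultured gonads of that age were sampled. Culture and age therefore cannot be told apart, and the comparison is called culture below only for short. Both groups also entered the rule, through XY minus XX at each time. Of 168 genes chosen at 72 h alone 96 were called, 81 higher and 15 lower. That choice asks for a high XY level at 72 h and sets no level at 0 h, so it favours genes that rise after 0 h. The libraries were apart for 26 of the 47 and for 22.1% of all genes, and the median log2 fold change was 0.26, against 0.03. Among cell surface genes 5 of 9 rose, and among intracellular genes 5 of 10 fell. The largest rises were of *Casq2* (2.52, edgeR adjusted p = 4.86e-11), from 6.16, 6.26, 7.17 and 10.4 CPM to 37.4, 63.1, 39.7 and 34.2, and of *Inhba* (2.34, edgeR adjusted p = 3.26e-15). *Nt5e* rose by 1.89, *Adcy7* by 1.79, *Smoc2* by 1.34 and *Col4a4* by 1.29, and *Fat3*, *Mybpc3*, *Enpep*, *Kcns2*, *2600014E21Rik*, *Plcxd3*, *Erbb3*, *Itga4*, *Gli1* and *Sostdc1* rose by 1.15 to 0.65. The decreases were led by *Tesc*, from 147, 147, 130 and 127 CPM to 58.8, 26.6, 27.8 and 25.3, a log2 fold change of -2.01 ± 0.23 (edgeR adjusted p = 1.57e-09). *Hsd17b3*, the last step to testosterone, fell from 53.3, 49.5, 41.6 and 36.1 CPM to 17.8, 15.7, 8.62 and 8.94 (-1.83 ± 0.30, edgeR adjusted p = 4.93e-06), and *Sct* from 95.4, 75.7, 95.1 and 102 to 24.2, 17.2, 30.6 and 38.5 (-1.75 ± 0.24, edgeR adjusted p = 9.11e-08). *Bricd5*, *Padi2*, *Vxn*, *Col9a3*, *Mmd2*, *Ccn2*, *Rtn4rl1*, *Sox8* and *Trim47* fell with log2 fold changes from -1.41 to -0.71. The call of *Sox8* was lost without 0 h M2 or M5 or 24 h DMSO M3, M4 or M5 (-1.24 to -0.54), on library totals without TMM, with a filter of 1 CPM in 4 libraries, with the 2 groups alone and by DESeq2, and that of *Erbb3* without 0 h M2 or M5 or 24 h DMSO M2 or M3 (0.64 to 1.10). *2600014E21Rik* lost its call without 0 h M2 or 24 h DMSO M3 (0.71 to 1.28), *Vxn* without 24 h DMSO M4 (-1.51 to -0.98) and *Itga4* without 24 h DMSO M3 (0.59 to 0.95). *Erbb3* was also not called with the 2 groups alone, nor *Trim47* on library totals.

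Other genes of the cell types and pathways were taken from lists. At 72 h, 4.19% of all genes tested fell and 2.29% rose with MEKi, and 0.939% and 0.866% with FGFRi. With MEKi against FGFRi 4.69% were lower and 1.74% higher. Counts of 1 or 2 genes of a list are near these shares. With MEKi at 72 h, 15 of 20 tested MAPK output genes fell, such as *Dusp6* and *Spry4*, and with FGFRi 3 fell and 1 rose. Of 22 other Sertoli cell genes 6 fell with MEKi (*Dmrt1*, *Etv5*, *Gdnf*, *Inhbb*, *Mro* and *Serpine2*) and 1 rose (*Krt18*), and 13 were lower with MEKi than with FGFRi, while 4 rose with FGFRi. *Etv5* was also counted among the MAPK output genes that fell. Of 15 foetal Leydig cell genes 4 rose with MEKi (*Cyp11a1*, *Fdx1*, *Lhcgr* and *Mgarp*). The 2 of 20 steroid and cholesterol synthesis genes that rose were again *Cyp11a1* and *Fdx1*. Of 16 peritubular and interstitial genes 2 rose (*Acta2* and *Myh11*) and 2 fell (*Nes* and *Pdgfrb*). Of 14 pre-granulosa cell genes 1 rose and 2 fell, and the list summed to 438 to 499 CPM in XY 72 h DMSO, 427 to 486 in XY 72 h MEKi and 2069 to 2388 in XX 72 h DMSO.

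Markers of other cell types moved with MEKi beside these results. The shares of all genes at 72 h are given above. At 24 h, 1.98% of all genes fell and 1.29% rose with MEKi, and 1.59% and 1.69% with FGFRi. Of 14 endothelial genes 10 fell at 72 h and 13 at 24 h, and the list summed to 82.3 to 165 CPM with DMSO and 37.7 to 49.3 with MEKi at 72 h. Of 11 macrophage genes 8 fell with MEKi and 7 with FGFRi at 72 h, with sums of 90.9 to 302 CPM in DMSO, 60.0 to 109 in MEKi and 56.9 to 86.8 in FGFRi. Of 12 germ cell genes 1 fell with MEKi at 72 h, but at 24 h 5 rose and 1 fell with MEKi (352 to 645 CPM, against 178 to 288 in DMSO) and 5 fell with FGFRi (61.3 to 129 CPM). At 72 h germ cell genes summed to 43.8 to 71.1 CPM in DMSO, and *Nanos2* was at 0 in every library of the group, as was the glial gene *Foxd3*. Of 6 glial and neural crest genes 1 rose and 1 fell with MEKi at 72 h, and *Erbb3*, itself on that list, fell. The 10 other genes of that list found in the counts summed to 58.5 to 135 CPM in DMSO and 55.8 to 104 in MEKi. The macrophage and germ cell sums were likewise over 12 and 16 genes, not all of which were tested. Of 11 erythroid genes 1 fell, of 7 duct and coelomic epithelium genes 2 rose, and of 15 proliferation genes 1, *Mki67*, fell. Between uncultured XY and 24 h DMSO, 11 of 22 other Sertoli cell genes fell and 4 rose. All 11 erythroid genes and 11 of 15 proliferation genes fell, and 0 of either list rose. Of 16 peritubular and interstitial genes 8 rose and 0 fell. Of all genes 8.9% rose and 5.5% fell. The part of these cell types in the changes of the 47 genes was not tested.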

How the data were processed

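Somatic (GFP-negative) cells of E12.5 gonads were measured by 3′ RNA-seq with molecular identifiers. The authors deposited whole-number counts per gene, made with scPipe and Rsubread on the GENCODE annotation of GRCm39 with strand used, as their methods state for germ cells of the same study and as was taken to apply here. The length of the molecular identifier differs between those methods and the code published with the study. That code makes tables with and without removal of duplicate molecules and analyses the former, which the deposited counts were taken to be. Nothing in the deposited counts was normalised. From these counts CPM were computed, on column totals for the rule and on TMM-scaled library sizes elsewhere. Groups and replicate names came from the column names and the labels. Genes were filtered with edgeR's filterByExpr and 15125 were tested by edgeR's quasi-likelihood test (edgeR 4.0.16, limma 3.58.1, R 4.3.3) with 1 coefficient per group over all 40 libraries and Benjamini-Hochberg adjustment over all genes tested, as two-sided tests. A gene was called at an adjusted p below 0.05 and a change of at least 1.5-fold. Alternatives were DESeq2 1.42.0, glmTreat, voom with treat, no filter on low counts or one of 1 CPM in 4 libraries, RLE factors, column totals, only the groups compared, a replicate block, leaving out each library, and other thresholds of the rule. The genes that the text names were all 47, with values per library for the 5 highest in XY, for up to 6 of the largest called changes of the inhibitor comparisons, for those nearest the threshold, and for Sertoli and Leydig list genes of at least 20 CPM. Other genes printed were chosen after their values were seen.

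The members of the set, the gene lists and the tests were chosen with earlier results of these data known. The lists were Sertoli cell, foetal Leydig cell, steroid and cholesterol synthesis, hedgehog response, MAPK output, peritubular and interstitial cell, endothelial cell, pre-granulosa cell, germ cell, glial and neural crest cell, macrophage, erythroid cell, duct and coelomic epithelium, and proliferation. Each library was a pool of gonads, so p-values measure the spread between pools. Precision is set by totals of 1380707 to 4836550 counts per library and covers counting error. Between libraries of a group the chi-square per degree of freedom was 1.92 to 7.69, and no library was counted as a copy. Names and coordinates came from GENCODE M39, and upstream sequence from the GRCm39 genome. The test was checked on simulated data. The result of the hedgehog list with MEKi at 72 h is not reported here.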

Additional observations from a re-analysis of the deposited data

Results flagged for a closer look

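In 180 groups of 4 libraries over 18 named genes, 15 had a highest or lowest library far from the other 3, where chance alone gives about 1 in 20 groups. With MEKi at 72 h these were *Islr2* in M3 (1.53 CPM) and *Efhd1* in M4 (53.7 CPM), and with FGFRi at 72 h *Bricd5* (48.3 CPM) and *Nt5e* (117 CPM), both in M5. With FGFRi at 24 h they were *Col9a3* (373 CPM) and *Islr2* (17.7 CPM), both in M1. With MEKi at 24 h they were *Hhip* (52.1 CPM) and *Hsd17b3* (14.7 CPM), both in M4. In XY 24 h DMSO they were *Col9a3* (294 CPM) and *Tesc* (58.8 CPM), both in M2, and in XY 0 h *Trim47* in M6 (79.6 CPM). In XX libraries they were *Defb19* in 0 h F4 (39.5 CPM), *Islr2* in 0 h F5 (0.754 CPM), *Hsd17b3* in 0 h F2 (4.27 CPM) and *Nt5e* in 24 h DMSO F6 (0.484 CPM). Some of these rest on very few counts, with 2 for *Islr2* in F5 and 1 for *Nt5e* in F6. The rate of 1 in 20 need not hold for such counts.

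The effect of MEKi differed between 72 h and 24 h for 5 genes, by edgeR's quasi-likelihood test of the difference itself. The difference in log2 fold change was -1.57 for *Mybpc3*, -1.53 for *Map3k21*, -1.49 for *Col9a3*, -1.36 for *Kcns2* and 1.27 for *Vcam1*.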

How the results depend on the processing

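Among the counts of calls and the changes of single genes in the comparisons of treatment or time, no direction was reversed under the alternatives run. Counts over gene lists and distances to XX were not recomputed. With the 1.5-fold change inside the test (glmTreat), the calls among the 47 genes were 2 for MEKi and 0 for FGFRi at 24 h (2 at an unadjusted p below 0.05), 6 for MEKi and 0 for FGFRi at 72 h (1), 13 for MEKi against FGFRi, 12 for culture and 0 for the difference between times (10). With voom and treat they were 1, 0 (2), 5, 0 (0), 8, 11 and 0 (11). FGFRi at 24 h gave 3 with its own groups alone. FGFRi at 72 h gave 6 with no filter, 1 by DESeq2 and 6 of 77 where genes were chosen without 72 h, and the difference between times gave 11 with no filter. Culture gave 96 of 168 where genes were chosen at 72 h alone, a choice that favours genes that rise after 0 h. A threshold of 1.5 in the rule chose 100 genes and one of 2.5 chose 22, and leaving out 1 library chose 43 to 51. Leaving out single libraries gave 7 to 8 calls for MEKi at 24 h, 1 to 9 for FGFRi at 24 h, 14 to 18 for MEKi at 72 h, 0 to 4 for FGFRi at 72 h, 17 to 22 for MEKi against FGFRi, 25 to 29 for culture and 3 to 7 for the difference between times. The cause of these moves was not tested, beyond a stricter test or fewer libraries by construction.

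Libraries that shared a replicate number did not deviate together (18 pairs, r from -0.16 to 0.12, 1 over 0.1). A replicate block gave 6 calls for MEKi and 2 for FGFRi at 24 h, 19 for MEKi and 1 for FGFRi at 72 h, 21 for MEKi against FGFRi, 29 for culture and 3 for the difference between times. Depth limits the size of the *Islr2* change, since the MEKi libraries at 72 h had 4 counts of it in all.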
